A study of Homo sapiens with 6 samples.

Results

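The genes described here are PDK4 and the other genes that set the phosphorylation state of the pyruvate dehydrogenase complex, 10 genes of the 20263 in the deposited table. PDK4 was chosen by its measured rise with overexpression, so its values are given as a description with no test. The other 9 were picked for their function and comprise the kinases PDK1, PDK2 and PDK3, the phosphatases PDP1 and PDP2, and the subunit genes PDHA1, PDHB, DLAT and PDHX. All 10 passed the filter on low counts, which kept 13543 genes.

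RNA sequencing of total RNA compared 3 libraries of cells given a LINC01518 overexpression vector with 3 libraries of cells given an empty vector, and no further treatment is named in the labels. Both groups are labelled LNCaP, an established human prostate cancer line, and no label says if libraries within a group derive from different cultures, so the spread behind each p-value may be technical. The title and sample labels name the long non-coding RNA LINC01518 as the insert and the series description names MEG3. Neither RNA was analysed here, so these data do not check the labels against the insert.

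The libraries held 38161544 to 42553688 counts. Of 12 luminal prostate markers, KLK3, KLK2, TMPRSS2 and FOLH1 had 0 counts in all 6 libraries, a count that allows up to 0.0703 to 0.0794 CPM (counts scaled to an equal library size after TMM normalization) for counting error only. LNCaP is known to express these 4 genes, so their absence goes against the cell line label, and the cells are called here by their vectors. The 12 together summed to 2727 to 2897 CPM with overexpression and 2263 to 2536 CPM with empty vector. Most of that sum was KRT8 and KRT18. KRT8 had 1639 to 1723 CPM with overexpression and 1300 to 1424 CPM with empty vector (edgeR adjusted p = 0.0187). The 8 fibroblast markers summed to 154 to 159 CPM with overexpression and 112 to 122 CPM with empty vector, with LUM, PDGFRA and FAP at 0. Most of that sum was COL1A1, at 113 to 116 CPM with overexpression and 80.1 to 86.6 CPM with empty vector (edgeR adjusted p = 0.00452). PDGFRB followed, at 35.1 to 38.4 CPM with overexpression and 27.7 to 30.8 CPM with empty vector (edgeR adjusted p = 0.0471). The 6 immune markers summed to 22.2 to 26.2 CPM with overexpression and 34.7 to 36.5 CPM with empty vector, with PTPRC, CD3E and LYZ at 0. The 5 endothelial markers summed to 7.34 to 9.67 CPM with overexpression and 8.42 to 8.85 CPM with empty vector, with KDR at 0, and the 5 basal epithelial markers summed to 120 to 131 CPM with overexpression and 123 to 157 CPM with empty vector. The part of other cells in the results below was not tested, and in bulk RNA fewer cells of a type cannot be told apart from less RNA per cell.

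The pyruvate dehydrogenase complex sits in the mitochondrial matrix and converts pyruvate, the end product of glycolysis, into acetyl-CoA for the tricarboxylic acid (TCA) cycle and for fat synthesis. The kinases PDK1 to PDK4 phosphorylate serines of its E1 alpha subunit and switch it off, and the phosphatases PDP1 and PDP2 remove the phosphate and switch it on again. PDK4 is known as the isoform whose transcription rises with fasting, fatty acids and glucocorticoid, through PPARs, FOXO factors and the glucocorticoid receptor, and PDK1 as a target of the hypoxia factor HIF1.

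PDK4 lies on the minus strand of chromosome 7 (95583499 to 95596491, GRCh38). The 250 bases before its RefSeq start site are printed here, since PDK4 is the gene the comparison turns on, with the windows of PDK2 and PDK1 beside it as kinases that moved less. For PDK1 and PDK2, which have several RefSeq starts, the window shown is the one that lies wholly outside the annotated exons of the gene. Each is written 5′ to 3′ on the gene's own strand, and capitals mark every match to 7 short motifs searched on both strands. The motifs were AGGTCA (the nuclear receptor half-site), GTAAACA (FOXO), AGAACA (the glucocorticoid receptor half-site), ACGTG (HIF), GGGCGG (SP1), CCAAT (NF-Y) and TATAAA (the TATA box).
PDK4, chr7:95596517-95596766, minus strand, GRCh38.p14: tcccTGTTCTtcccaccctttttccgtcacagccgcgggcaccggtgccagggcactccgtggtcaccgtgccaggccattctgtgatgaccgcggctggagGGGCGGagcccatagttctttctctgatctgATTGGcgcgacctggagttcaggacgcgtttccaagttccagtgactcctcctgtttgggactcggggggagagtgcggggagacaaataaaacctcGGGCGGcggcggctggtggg
PDK2, chr17:50094487-50094736, plus strand, GRCh38.p14: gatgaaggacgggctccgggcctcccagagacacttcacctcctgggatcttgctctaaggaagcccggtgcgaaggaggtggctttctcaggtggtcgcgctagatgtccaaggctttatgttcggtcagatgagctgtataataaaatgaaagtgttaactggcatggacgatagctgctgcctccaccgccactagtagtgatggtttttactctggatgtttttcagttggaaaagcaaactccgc
PDK1, chr2:172555123-172555372, plus strand, GRCh38.p14: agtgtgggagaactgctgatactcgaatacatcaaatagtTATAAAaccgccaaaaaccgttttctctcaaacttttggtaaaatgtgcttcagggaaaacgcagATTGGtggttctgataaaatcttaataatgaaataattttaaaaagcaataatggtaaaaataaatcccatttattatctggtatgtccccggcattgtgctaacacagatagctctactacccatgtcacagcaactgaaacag

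The PDK4 window held 2 SP1 motifs, 1 NF-Y motif and, near its 5′ end, 1 glucocorticoid receptor half-site. Among the 35116 RefSeq promoter windows of the same length, 42.6% held the SP1 motif, 32% the NF-Y motif, 12.4% the glucocorticoid receptor half-site, 12.1% the nuclear receptor half-site, 2.98% the FOXO motif, 18.5% the HIF motif and 10.7% the TATA box. The nuclear receptor, FOXO, HIF and TATA motifs had 0 matches in the PDK4 window, which says only that these letters are not in these 250 bases. The PDK2 window shown had 0 matches to any of the 7 motifs, and the PDK1 window had 1 TATA box and 1 NF-Y motif. A further PDK1 window, at another RefSeq start, held 7 SP1 and 2 HIF motifs, and a further PDK2 window held 3 SP1, 3 NF-Y and 2 HIF motifs. GC content was 62.8% in the PDK4 window, 51.2% in the PDK2 window shown and 35.6% in the PDK1 window shown, against a median of 58% over all windows. The windows of PDK1 and PDK2 not shown had a higher GC content than the PDK4 window, 79.6% for PDK1 and 67.6% and 64.4% for PDK2. RefSeq windows matched 9 of the 10 genes.

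PDK4 transcripts were about 2 times as abundant with overexpression. PDK4 had 171.9, 175.9 and 164.9 CPM in the 3 overexpression libraries, against 85.8, 85.4 and 81.5 CPM in the 3 empty vector libraries. The groups did not overlap, and the lowest overexpression library lay well above the highest empty vector library. The mean was 170.9 ± 5.52 CPM with overexpression and 84.2 ± 2.36 CPM with empty vector (SD, n = 3 each), a 2.03-fold difference and a log2 fold change of 1.02. The deposited TPM, which are scaled by gene length, gave 92.3 ± 3.50 with overexpression and 46.9 ± 2.47 with empty vector (SD, n = 3 each), a 1.97-fold difference. Among all genes tested, 98 had a higher log2 fold change than PDK4, and 0 of the genes at or above its mean level (1653 with PDK4 itself) did. PDK4 was chosen by this rise, so its rank and the gap between the groups are descriptions only.

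**Figure D1:**
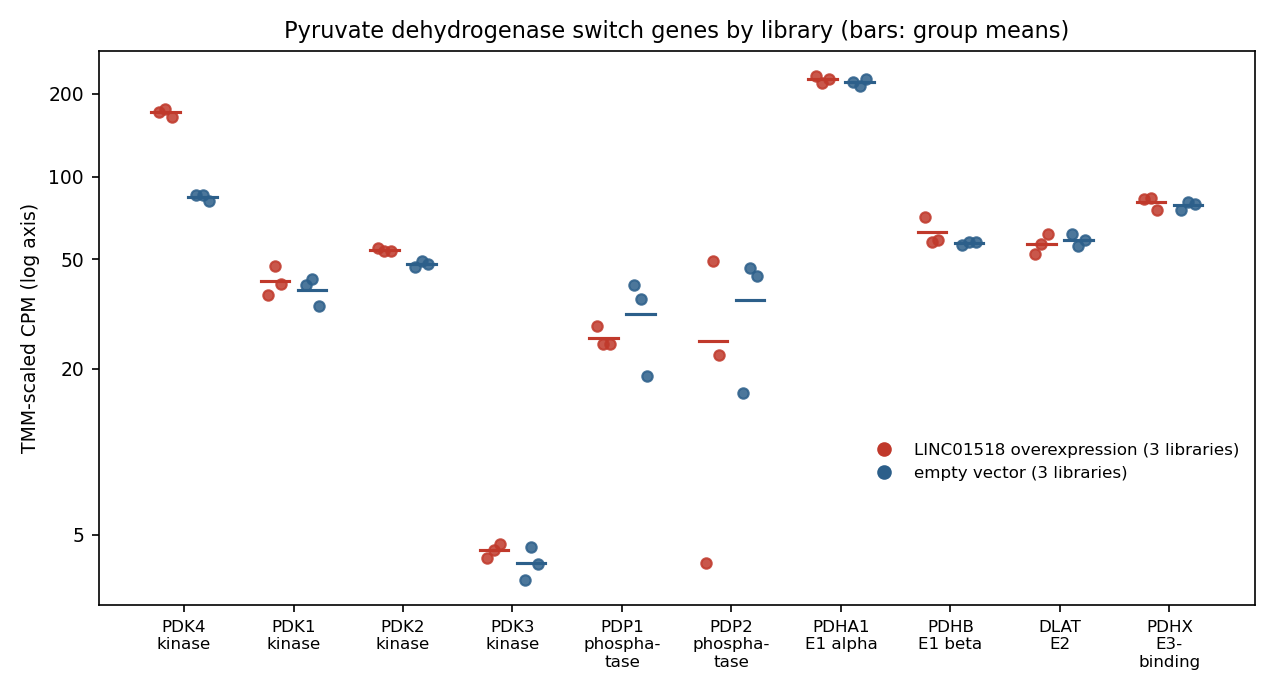
TMM-scaled CPM (log axis) of the 10 genes in each library, overexpression left of empty vector, with a bar at each group mean. The 3 PDK4 points with overexpression (164.9 to 175.9 CPM) lie above the 3 with empty vector (81.5 to 85.8 CPM), and the phosphatase PDP2 runs over the libraries from 3.95 to 49.5 CPM.

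Of the other 9 genes, 0 were called by edgeR (adjusted p under 0.05), where 5.6% of all genes tested were called, 3.57% higher and 2.03% lower. That split, 484 higher and 275 lower, became 346 higher and 382 lower with scaling by library size only, and 99 higher and 111 lower on TPM. PDK2 alone among the 9 had an unadjusted p under 0.05, as had 23.6% of all genes. DESeq2, limma-voom and limma-trend on log2(TPM + 1) also called 0 of the 9, where they called 9.72%, 4.6% and 1.55% of all genes. Of the 9, their unadjusted p was under 0.05 for 1, 1 and 0. The groups did not overlap for 2 of the 9, PDK2 and PDHB, both higher with overexpression, and for 31.4% of all genes tested (15.9% of all genes tested with overexpression higher). The 9 log2 fold changes ran between -0.49 and 0.17 with a median of 0.03, against a median of -0.0035 over all genes tested.

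**Figure D2:**
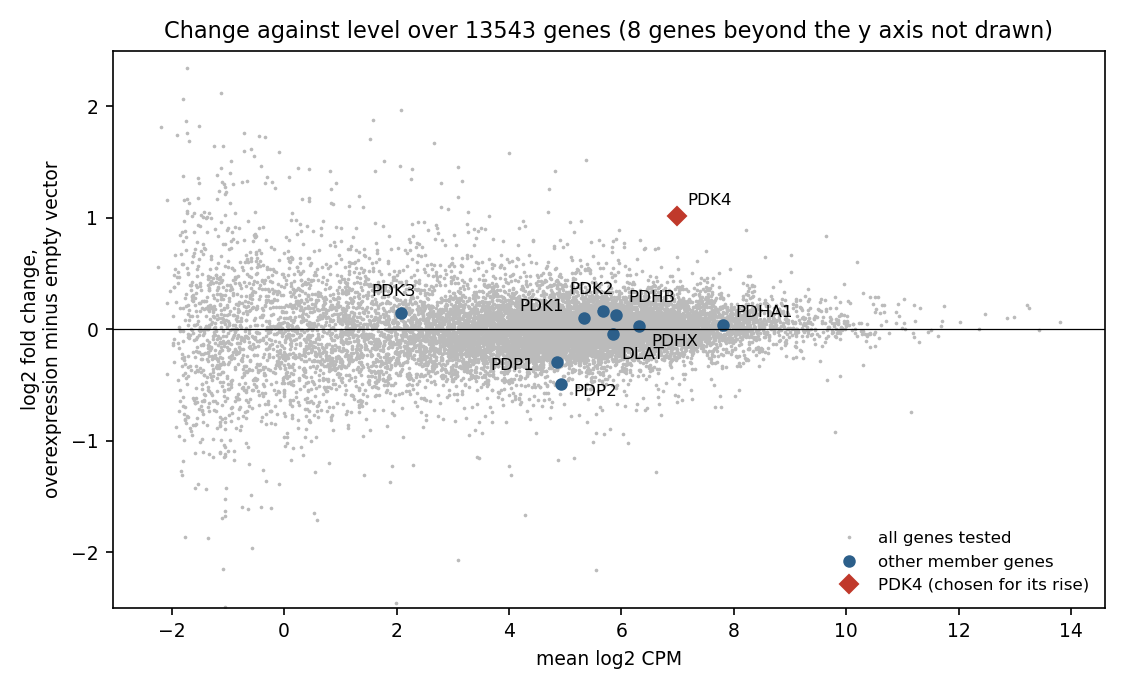
Log2 fold change (overexpression minus empty vector) against mean log2 CPM for the 13543 genes tested (grey), with the 10 genes marked and 8 genes beyond the y axis not drawn. PDK4 stands at 1.02, and the other 9 lie between -0.49 and 0.17.

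PDK2, a widely expressed kinase of the complex, showed a small difference that did not pass the test. It had 54.8, 53.4 and 53.5 CPM with overexpression, against 46.9, 49.4 and 48.0 CPM with empty vector, so the groups lay close together without overlapping. The log2 fold change was 0.17 (SE 0.053, 95% interval 0.04 to 0.29, edgeR adjusted p = 0.112). The antisense-strand gene SAMD14 overlaps the 3′ end of PDK2 and had 0 to 4 counts per library.

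PDK1, the kinase known as a HIF1 target, had 37.0, 47.5 and 40.8 CPM with overexpression and 40.3, 42.3 and 33.8 CPM with empty vector. The groups overlapped, and the log2 fold change of 0.10 had a 95% interval of -0.16 to 0.37 (edgeR adjusted p = 0.626). PDK3, a kinase gene on the X chromosome, was the least abundant member, with 4.12, 4.40 and 4.63 CPM with overexpression and 3.42, 4.50 and 3.92 CPM with empty vector. Its groups also overlapped (log2 fold change 0.15, 95% interval -0.17 to 0.47, edgeR adjusted p = 0.559). The intervals of PDK1, PDK2 and PDK3 all ended below a log2 fold change of 0.5.

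The make-up of the kinase transcripts differed between the groups in the direction of PDK4, and the other 3 kinases together overlapped between the groups. By TPM, the 4 kinases summed to 141, 148 and 137 with overexpression and to 97.6, 97.6 and 87.0 with empty vector. PDK4 made up 65.6%, 64.8% and 64.6% of that sum with overexpression, against 50.2%, 48.8% and 50.8% with empty vector. Without PDK4, the other 3 kinases summed to 49.7 ± 1.99 TPM with overexpression and 47.1 ± 3.81 TPM with empty vector (SD, n = 3 each). PDK2 was second in both groups, with 20.5% to 21.8% of the kinase TPM with overexpression and 29.4% to 31.1% with empty vector, followed by PDK1 with 10.5% ± 0.975 with overexpression and 15.7% ± 1.88 with empty vector. These shares are descriptions, since PDK4 was selected on its rise. The summed TPM of the kinases stood at 105% ± 5.78 of the TPM of their substrate gene PDHA1 with overexpression and at 69.3% ± 4.59 with empty vector. PDK4 alone stood at 68.0% ± 3.66 of PDHA1 with overexpression and 34.5% ± 1.71 with empty vector.

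**Figure D3:**
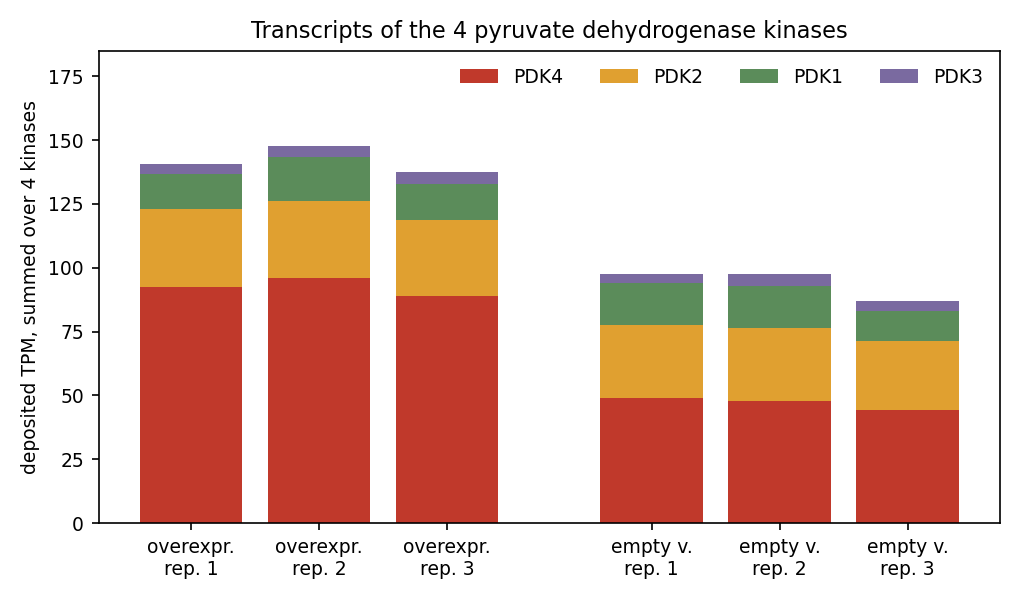
Deposited TPM of PDK4, PDK2, PDK1 and PDK3 stacked in each library, overexpression left and empty vector right. The stacks reach 137 to 148 TPM with overexpression and 87.0 to 97.6 TPM with empty vector, and the PDK4 segment is 64.6% to 65.6% of the stack with overexpression and 48.8% to 50.8% with empty vector.

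The phosphatases, which act against the kinases, varied widely between libraries of the same group, and neither was called. PDP1, the calcium-stimulated phosphatase, had 28.6, 24.6 and 24.6 CPM with overexpression, against 40.2, 36.0 and 18.9 CPM with empty vector. The third empty vector library lay below all the others, so the groups overlapped (log2 fold change -0.29, SE 0.292, 95% interval -1.03 to 0.45, edgeR adjusted p = 0.602). Without empty vector replicate 3, PDP1 was called lower, at a log2 fold change of -0.56 (edgeR adjusted p = 0.0348), and in the other 5 fits without 1 library it was not called.

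PDP2, the other phosphatase, had 3.95, 49.5 and 22.6 CPM with overexpression and 16.4, 46.5 and 43.5 CPM with empty vector. The first library of each group was the lowest of its group, and the counts behind the 3.95 CPM were 166. The log2 fold change of -0.49 had a 95% interval of -3.09 to 2.12 (edgeR adjusted p = 0.810), and without overexpression replicate 1 it was 0.02. The SD of log2 CPM of PDP2 among the overexpression libraries was 1.86, the 40th highest of 13543 genes, against a median of 0.0856 over all genes. Among the empty vector libraries it was 0.84, against a median of 0.106.

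The deposited counts and TPM of the phosphatases did not move in step. A PDP2 TPM unit corresponded to 39.4, 110 and 88.7 counts in the overexpression libraries and to 95.3, 127 and 116 counts in the empty vector libraries, a 3.22-fold range. For PDP1 the range was 1.51-fold, with 55.8, 77.8 and 51.5 counts per TPM with overexpression and 54.0, 58.7 and 70.8 with empty vector. For the other 8 genes it lay between 1.09 and 1.15-fold, with PDK4 at 1.11-fold. Across all 10546 genes that reached 200 counts in every library, the median was 1.13-fold and the 90th percentile 1.35-fold. PDP2 (166 counts in overexpression replicate 1) and PDK3 (140 to 192 counts per library) did not reach that level and are outside this set. GENCODE release 29 annotates 9 PDP2 transcripts of 362 to 7146 bases and 10 PDP1 transcripts of 341 to 4358 bases, and whether different transcripts were read in different libraries was not tested.

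**Figure D4:**
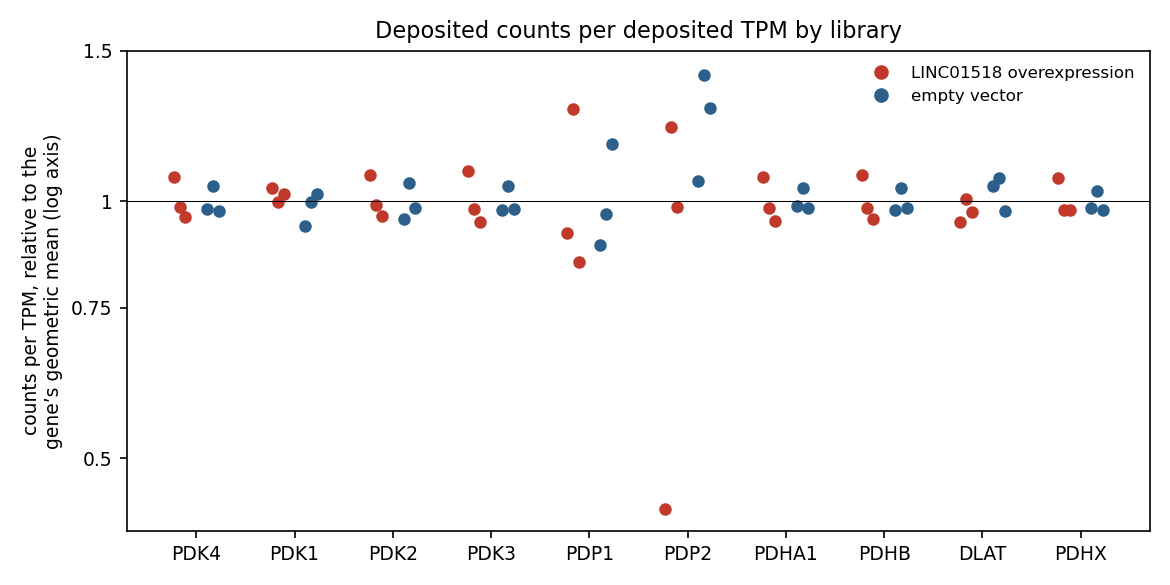
Deposited counts divided by deposited TPM for each gene and library, relative to the geometric mean of the gene over the 6 libraries (log axis), overexpression left of empty vector. PDP2 spans a 3.22-fold range, with overexpression replicate 1 lowest, PDP1 spans 1.51-fold, and the other 8 genes span 1.09 to 1.15-fold.

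The subunit genes of the complex showed no called difference. PDHA1 encodes the E1 alpha subunit that carries the regulated serines, and it had 231.9, 218.7 and 225.5 CPM with overexpression against 219.6, 214.1 and 226.4 CPM with empty vector. The groups overlapped, and the log2 fold change was 0.03 (95% interval -0.07 to 0.14, edgeR adjusted p = 0.680). In TPM, PDHA1 had 136 ± 2.81 with overexpression and 136 ± 2.32 with empty vector (SD, n = 3 each).

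PDHB, the E1 beta subunit gene, had 71.5, 58.0 and 58.7 CPM with overexpression, against 56.5, 57.7 and 57.6 CPM with empty vector. The groups did not overlap, although the lowest overexpression library and the highest empty vector library lay within 1 CPM of each other (log2 fold change 0.13, 95% interval -0.06 to 0.33, edgeR adjusted p = 0.389). Without overexpression replicate 1, the high library, the log2 fold change was 0.03 (edgeR adjusted p = 0.854). DLAT encodes the E2 subunit, the acetyltransferase core, and its log2 fold change was -0.04 (95% interval -0.22 to 0.13, edgeR adjusted p = 0.762), with 52.1, 56.9 and 61.9 CPM with overexpression and 61.7, 55.8 and 58.7 CPM with empty vector. PDHX, whose product ties E3 to the core, had 82.6, 83.3 and 75.5 CPM with overexpression and 75.4, 81.0 and 79.6 CPM with empty vector, at 0.03 (95% interval -0.10 to 0.17, edgeR adjusted p = 0.767). DLAT and PDHX libraries of both groups were interleaved. PDHX shares its 5′ end with APIP on the opposite strand (940 to 1233 counts per library), and the counting is not stated to use strand.

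Ordered by mean TPM, PDHA1 stood first in both groups. With overexpression PDK4 came second at 92.3 TPM, its range overlapping that of PDHB (81.1), followed by PDHX (67.9), PDK2 (30.3), DLAT (28.2), PDP1 (17.3), PDK1 (14.9), PDP2 (10.5) and PDK3 (4.50). In that order, PDP1 and PDK1, PDK1 and PDP2, and PDP2 and PDK3 overlapped as well. With empty vector the order was PDHA1 (136), PDHB (76.4), PDHX (68.8), PDK4 (46.9), DLAT (28.5), PDK2 (28.2), PDP1 (22.3), PDK1 (14.8), PDP2 (12.4) and PDK3 (4.17), and neighbours overlapped from DLAT down to PDP2.

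The genes that complete the complex or act on it showed 0 called of 5 tested, with 0 at an unadjusted p under 0.05. By edgeR, 5.6% of all genes tested were called and 23.6% had an unadjusted p under 0.05. The 5 were DLD, the E3 subunit gene (87.3 ± 4.11 CPM with overexpression and 83.6 ± 1.34 CPM with empty vector, SD, n = 3 each), PDPR, the regulatory subunit gene of the phosphatase, and LIAS, LIPT1 and LIPT2 of lipoic acid attachment. Their median log2 fold change was 0.06. Of 3 tested genes that supply thiamine diphosphate, the cofactor of E1, 0 were called and 0 had an unadjusted p under 0.05. The most abundant of them, the thiamine transporter gene SLC19A2, had 46.8, 24.9 and 43.8 CPM with overexpression and 40.7, 39.1 and 40.9 CPM with empty vector. DESeq2, limma-voom and limma-trend on TPM each also called 0 genes of these 2 lists, with 0 at an unadjusted p under 0.05. Over all genes tested they called 9.72%, 4.6% and 1.55%. With 5 and 3 genes tested, 0 called lies near these shares.

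Of 17 tested genes that make, import or use pyruvate, 2 rose and 1 fell by edgeR (3.57% of all genes tested rose and 2.03% fell), with a list median of -0.01. DESeq2 called 2 higher and 3 lower, limma-voom 2 higher and 0 lower, and limma-trend on TPM 1 higher and 1 lower. Those tools called 9.72%, 4.6% and 1.55% of all genes tested, both directions together. PKM, the pyruvate kinase gene, rose to 1140 ± 49.5 CPM with overexpression, against 861 ± 13.5 CPM with empty vector (log2 fold change 0.41, edgeR adjusted p = 0.00632). PC encodes pyruvate carboxylase, which takes pyruvate to oxaloacetate instead of acetyl-CoA, and rose to 371 ± 1.71 CPM, against 321 ± 14.3 CPM with empty vector (0.21, edgeR adjusted p = 0.0406). PCK2, the mitochondrial phosphoenolpyruvate carboxykinase gene, fell to 63.8 ± 3.57 CPM, against 79.5 ± 6.12 CPM with empty vector (-0.32, edgeR adjusted p = 0.0448). PC lost its call in 6 of the 6 fits without 1 library (adjusted p 0.0617 to 0.130) and PCK2 in 5 (up to 0.141), while PKM kept its call in all 6. The pyruvate carrier genes MPC1 and MPC2 were at -0.12 and -0.05, and the lactate dehydrogenase genes LDHA and LDHB at 0.18 and 0.13, with none called.

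Among the 20 TCA cycle genes 1 rose, OGDH, which encodes the E1 subunit of 2-oxoglutarate dehydrogenase, with 416 ± 17.2 CPM with overexpression and 355 ± 16.4 CPM with empty vector (log2 fold change 0.23, edgeR adjusted p = 0.0460). By edgeR, 3.57% of all genes tested were called higher and 2.03% lower. OGDH lost its call in all 6 fits without 1 library (adjusted p 0.0741 to 0.153). The list median was 0.05, and 8 of the 20 had an unadjusted p under 0.05, where 23.6% of all genes had. DESeq2 called 2 of the 20 higher and 1 lower, where it called 9.72% of all genes. Both limma-voom and limma-trend on TPM called 0 (4.6% and 1.55% of all genes), with 8 and 4 at an unadjusted p under 0.05. CS, the citrate synthase gene that takes up acetyl-CoA, was not called (log2 fold change -0.34, edgeR adjusted p = 0.656) and had 257, 258 and 102 CPM with overexpression and 252, 254 and 274 CPM with empty vector. The third overexpression library alone was low.

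**Figure D5:**
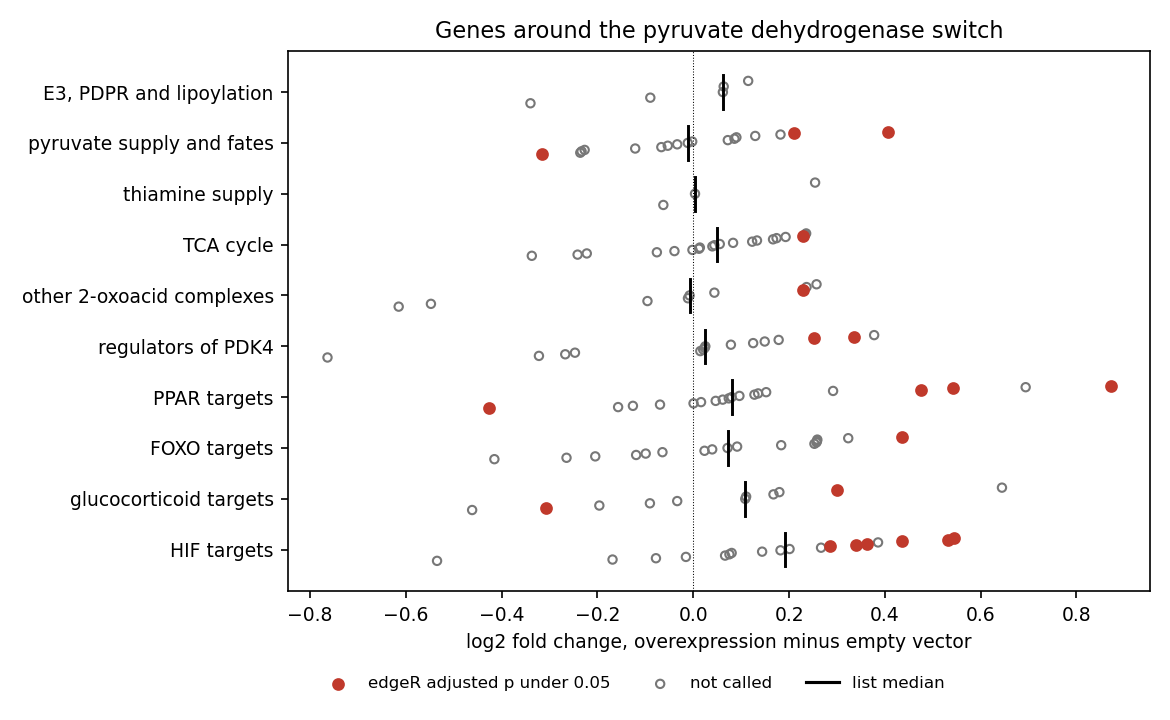
Log2 fold changes (overexpression minus empty vector) of the tested genes of 10 lists around the complex, with called genes filled and a line at each list median. The HIF list has 6 called genes of 18 tested, all to the right of 0. The lists of E3 with lipoylation (5 tested) and of thiamine supply (3 tested) have 0. Of all genes tested, 5.6% were called.

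Transcription factors and cofactors known to act on PDK4 had 2 of 15 higher and 0 lower by edgeR, with a median of 0.03. Of all genes tested, 3.57% were called higher and 2.03% lower. An unadjusted p under 0.05 was found for 8 of the 15 and for 23.6% of all genes. DESeq2 called 3 higher, limma-voom 2 and limma-trend on TPM 0, with 0 lower in each. Their shares over all genes tested, both directions together, were 9.72%, 4.6% and 1.55%. LPIN1, which encodes the lipin that coactivates PPARA in mouse liver, rose to 48.5 ± 0.956 CPM with overexpression, against 38.4 ± 2.68 CPM with empty vector (log2 fold change 0.34, edgeR adjusted p = 0.0322). E2F1, a cell cycle factor, rose to 148 ± 7.0 CPM, against 125 ± 3.65 CPM with empty vector (0.25, edgeR adjusted p = 0.0340). LPIN1 lost its call in 5 of the 6 fits without 1 library and E2F1 in 6. The receptor genes PPARA (0.12), PPARD (0.02), PPARG (-0.27) and NR3C1 (0.18) and the forkhead genes FOXO1 (0.01) and FOXO3 (0.03) were not called.

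Other genes that PPARs are known to induce had 3 of 19 higher and 1 lower by edgeR, with a median of 0.08. Over all genes tested, 3.57% were called higher and 2.03% lower. An unadjusted p under 0.05 was found for 8 of the 19 and for 23.6% of all genes. DESeq2 and limma-voom each called 3 higher and 1 lower, and limma-trend on TPM 2 higher and 1 lower. In either direction these 3 tools called 9.72%, 4.6% and 1.55% of all genes tested. FABP3, a fatty acid binding protein gene, rose to 12.4 ± 0.634 CPM with overexpression, against 6.76 ± 0.524 CPM with empty vector (log2 fold change 0.87, edgeR adjusted p = 0.00485), and was called in all 6 fits without 1 library. ACOT1, an acyl-CoA thioesterase gene whose reads may be split with its near-identical neighbour ACOT2 (0.48, edgeR adjusted p = 0.0156), and ACSL1, an acyl-CoA synthetase gene (0.54, edgeR adjusted p = 0.0364), also rose. Of the 6 fits without 1 library, ACOT1 lost its call in 3 and ACSL1 in 6. ANGPTL4, a lipase inhibitor gene that PPARs and hypoxia induce, fell to 39.4 ± 1.32 CPM with overexpression, against 52.9 ± 3.73 CPM with empty vector (-0.43, edgeR adjusted p = 0.0163), and lost its call in 2. CPT1A, the carnitine palmitoyltransferase gene of fatty acid oxidation, was at 0.15 (edgeR adjusted p = 0.128).

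Of 17 tested FOXO targets 1 rose, the sestrin gene SESN3, with 22.6 ± 0.124 CPM with overexpression and 16.7 ± 1.45 CPM with empty vector (log2 fold change 0.44, edgeR adjusted p = 0.0266), and the list median was 0.07. Glucocorticoid targets had 1 of 11 higher, CRISPLD2 (0.30, edgeR adjusted p = 0.0377), and 1 lower, the Krüppel-like factor gene KLF9 (-0.31, edgeR adjusted p = 0.0223), with a median of 0.11. Over all genes tested, edgeR called 3.57% higher and 2.03% lower. DESeq2 called 2 FOXO targets higher, and 1 glucocorticoid target higher and 1 lower. With limma-voom 1 FOXO target was higher and 1 glucocorticoid target lower, and limma-trend on TPM called 0 of either list. SESN3 and CRISPLD2 each lost their call in 5 of the 6 fits without 1 library, and KLF9 in 4. FKBP5, a gene that glucocorticoid strongly induces, was at -0.46 (edgeR adjusted p = 0.342).

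HIF targets, of which PDK1 is known as one, had 6 of 18 higher and 0 lower, with a median of 0.19, where 3.57% of all genes tested were called higher and 2.03% lower. EGLN1, an oxygen-sensing prolyl hydroxylase gene, rose to 152 ± 3.92 CPM with overexpression, against 113 ± 5.65 CPM with empty vector (log2 fold change 0.44, edgeR adjusted p = 0.00656). BNIP3, a mitophagy receptor gene (0.36, edgeR adjusted p = 0.00991), PFKFB4, which encodes a regulator of glycolysis (0.53, edgeR adjusted p = 0.0157), and CA9, a carbonic anhydrase gene (0.54, edgeR adjusted p = 0.0163), rose too, and PGK1 and NDRG1 completed the 6. VEGFA was at -0.53 (edgeR adjusted p = 0.306). PDK1 itself, at 0.10, was not called. Of the 6 fits without 1 library, CA9 lost its call in 3 and PFKFB4 in 2. DESeq2 called 7 of the 18 (9.72% of all genes), limma-voom 6 (4.6%) and limma-trend on TPM 1 (1.55%).

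Around PDK4 on chromosome 7, 6 other genes of the table start within 500 kb. PON2, a paraoxonase gene, was the only one above 1 CPM, with 88.0, 91.2 and 86.4 CPM with overexpression and 89.5, 78.6 and 85.3 CPM with empty vector, and its groups overlapped (log2 fold change 0.07, edgeR adjusted p = 0.541). DYNC1I1, a dynein chain gene, had 0.50, 0.356 and 0.371 CPM with overexpression and 0.244, 0.188 and 0.103 CPM with empty vector, at 1.18 (95% interval 0.23 to 2.13, edgeR adjusted p = 0.137). PON3 and PPP1R9A-AS1 had 0 counts in all 6 libraries, and PON1 and ASB4 were not tested.

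By Pearson correlation with PDK4 on log2 CPM over the 6 libraries, the most alike genes, among those whose log2 CPM averaged 3 or more, were PTGS1 (0.998), ARSB (0.997), NID2 (0.997), AP2B1 (0.997) and LZTS2 (0.996). The 6 points are 2 groups of 3, so these values mostly describe a difference between the groups with little spread within them. PTGS1, the cyclooxygenase-1 gene, had 1423, 1415 and 1371 CPM with overexpression and 915, 954 and 907 CPM with empty vector. ARSB, an arylsulfatase gene of the lysosome, had 41.7, 42.2 and 42.5 CPM with overexpression and 27.6, 27.8 and 26.5 CPM with empty vector. Among the 8 other members above that level, which leaves out PDK3, PDK2 had the highest value, 0.955, and PDP2 the lowest, -0.381.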

How the data were processed

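The submitters' processing notes name Trimmomatic 0.36, HISAT2, the build GRCh38, featureCounts (Subread 1.5.1) and DESeq, without their settings. The deposited counts are whole numbers per gene with no normalization. The deposited TPM are scaled by the authors by gene length and to a fixed total per library, with a tool not given in the sources used here. Neither annotation release nor strand setting is named there. Symbols came from a gene name table (20148 of 20263 genes) and positions from GENCODE release 29 (GRCh38). All columns matched a sample by name, with 0 left over.

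Counts were filtered with filterByExpr (minimum count 10, minimum total 15), scaled by TMM and tested in R 4.3.3 with edgeR 4.0.16 (robust quasi-likelihood F test, group as the only term, 13543 genes, Benjamini-Hochberg over all of them, called under 0.05). The SE is the log2 fold change over the square root of F, and 95% intervals use it with the moderated degrees of freedom. Alternatives used DESeq2 1.42.0, limma 3.58.1 (voom, and trend on log2(TPM + 1) or log2(TPM + 0.1)), other scalings and filters, and fits without 1 library. Promoter sequences are those of RefSeq (GRCh38.p14). Replicates of a group differed beyond sampling noise in every pair (chi-square per degree of freedom 19.7 to 30.8).

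The members, lists and tests were chosen with earlier results of these data known. Named genes are the 10 members, up to 4 called genes of each list (or its most abundant gene where none was called), genes starting within 500 kb of PDK4 and the 5 most alike in pattern. Other genes named, such as the pyruvate carriers, CS, VEGFA, FKBP5, CPT1A, PDPR and the receptors, are list members chosen after their values were seen. OGDH, DLST and LDHA stand in 2 lists each.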

Additional observations from a re-analysis of the deposited data

How the results depend on the processing

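The log2 fold change of PDK4 lay between 0.96 and 1.05 over 18 alternative settings and was within its replicate spread of 1.02 in 16 of them; limma-trend on TPM gave 0.96 with a pseudocount of 1 and 0.97 with 0.1. The share of PDK4 in the kinase TPM was 15.1 percentage points higher with overexpression, 15.0 with CPM in place of TPM, and 14.5 to 15.5 without 1 library. Of the other 9 member genes 0 were called in 17 of 18 settings and 1, PDP1, without empty vector replicate 3 (0 to 1 without 1 library). Over all genes edgeR called 759, against 193 to 458 without 1 library, 1316 with DESeq2, and 210 and 199 with limma-trend on TPM at pseudocounts of 1 and 0.1; fits with 5 libraries have fewer samples, and the cause of the other differences was not tested.

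Values with the other sign were all of uncalled genes: PDHX (-0.021 with both TPM pseudocounts), DLD (-0.11 with both), and, without 1 library, PDP2 (0.022 against -0.49 with all libraries, range -1.43 to 0.022), DLAT (0.015, range -0.11 to 0.015) and SLC19A2 (0.17, range -0.23 to 0.17), the last without overexpression replicate 2 and the others without overexpression replicate 1. With the replicate number as a block 232 genes were called. Deviations of same-numbered libraries correlated at 0.0225, 0.0409 and 0.158, and not every library correlated best with its own number, so the numbers are not taken as pairs. Of the named genes called, 18 lost the call in at least 1 setting. As to depth, PDP1 had at least 732 counts and PDP2 at least 166 in each library, against at least 3158 for PDK4.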

Other observations

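The other mitochondrial complexes built on the same plan, which oxidise branched-chain 2-oxoacids and 2-oxoglutarate, had 1 of 9 tested genes called, OGDH. Over all genes tested, edgeR called 5.6%. BCKDK, which encodes the kinase of the branched-chain complex and is a relative of the pyruvate dehydrogenase kinases, had 83.3, 83.8 and 80.8 CPM with overexpression and 98.6, 74.5 and 76.7 CPM with empty vector (log2 fold change -0.01, edgeR adjusted p = 0.965). PPM1K, the phosphatase gene of that complex, had 2.02, 2.13 and 2.30 CPM with overexpression and 3.0, 2.86 and 3.59 CPM with empty vector. Its groups did not overlap, and it did not pass the test (-0.55, edgeR adjusted p = 0.0791). The E1 genes BCKDHA (0.26, edgeR adjusted p = 0.0529) and BCKDHB (0.24, edgeR adjusted p = 0.0896) were higher with overexpression, also without overlap, and not called. Groups did not overlap for 31.4% of all genes tested. BCKDK, PPM1K, BCKDHA and BCKDHB were singled out after their values were seen.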
